A study of Mus musculus with 8 samples.

Results

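The 42 genes described here build ribosomes or shape the nucleolus, the nuclear compartment where ribosomal RNA is made. They were taken by symbol from a fixed list, and all 42 were found among the 52459 genes of the count table. By role they comprise 4 subunits of RNA polymerase I, 3 proteins of the box C/D and 4 of the box H/ACA small nucleolar ribonucleoproteins, 4 nucleolar chaperones and scaffold proteins, 9 factors of the small subunit, 16 of the large subunit, and the pair Ddx21 and Mybbp1a. Each gene is followed across 8 RNA-seq libraries and set beside the level of Myc in the same library.

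Every library came from the spleen of 1 moribund C57BL/6J mouse carrying an acute myeloid leukaemia driven by AE9a, a truncated RUNX1-RUNX1T1 fusion, and each is labelled as AE9a+ leukaemic cells. All leukaemias, the controls included, began as cKit+ marrow cells given a retrovirus with AE9a. Their genotype, RTA shTet2, holds a doxycycline-inducible hairpin against Tet2. All were transplanted as 50000 leukaemia cells with 500000 wild-type support marrow cells. The controls were 3 secondary recipients on doxycycline and PBS, with Tet2 knocked down (mice 16, 17 and 19). Another 2 secondary recipients were off doxycycline and given PBS, labelled Tet2 restoration (mice 21 and 23), and 2 were on doxycycline and given ascorbate (mice 28 and 30). One primary recipient, irradiated at 6 to 8 weeks of age and fed doxycycline, completes the series (mouse 12). Ages of the secondary recipients and the number of primary leukaemias behind them are not given in the sources used here. Doxycycline withdrawal and the Tet2 label coincide, so their effects cannot be told apart.

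Ribosome assembly starts in the nucleolus, where RNA polymerase I transcribes a long precursor that is cut, folded and chemically modified while ribosomal proteins join it. Box C/D particles guide methylation of the precursor and box H/ACA particles guide its conversion of uridine to pseudouridine. Separate sets of factors then build the small and the large subunit. MYC, a transcription factor that pairs with MAX on the E-box CACGTG, is a textbook activator of this programme, and high output of ribosomes is a common feature of growing leukaemia cells.

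The promoter sequences below are shown because they carry that E-box. RefSeq promoter windows of 300 bases (250 before and 50 after the start site, GRCm38.p6) were available for 37 of the 42 genes. Fbl, Npm1, Rrs1, Bop1 and Rrp12 had no entry. CACGTG, which reads the same on both strands, occurred in 7 of the 37 genes (18.9%), against 8.09% of all genes with a window and 11.9% of those expressed enough to be tested. In each stretch, printed 5′ to 3′ on the gene's strand, capitals mark the E-box.
Grwd1, chr7:45830740-45830767, minus strand: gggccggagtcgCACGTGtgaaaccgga
Mybbp1a, chr11:72441355-72441376, plus strand: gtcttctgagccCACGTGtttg
Nop2, chr6:125131811-125131840, plus strand: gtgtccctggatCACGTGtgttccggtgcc
Pes1, chr11:3963965-3963994, plus strand: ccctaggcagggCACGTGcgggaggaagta
Tsr1, chr11:74898092-74898121, plus strand: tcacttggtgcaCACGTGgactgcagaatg
Utp20, chr10:88826765-88826789, minus strand: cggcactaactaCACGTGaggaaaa
Wdr43, chr17:71616220-71616249, plus strand: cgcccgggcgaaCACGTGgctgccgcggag
Counted from the first transcribed base, the motif began at base 35 in Grwd1, 41 in Mybbp1a, 3 in Pes1, 25 in Tsr1, 38 in Utp20 and 18 in Wdr43. In Nop2 it began at base -60. So 6 of the 7 lay after the start site, a part that makes up 16.7% of the window and held 14.9% of the E-boxes of all tested genes. A match is a description of these letters and not a measured binding site.

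Depth ran from 18136978 to 34197877 counts per library. Mouse 28 had the lowest depth and mouse 23 the next lowest, and the same 2 libraries had the largest share of counts from mitochondrial genes (17.1% and 14.5%, against 5.16% to 11.4% elsewhere). Tet2, the hairpin's target, read 12.6 to 13.4 CPM (counts scaled to a common library total) in the controls, 14.1 CPM in mouse 21 and 23.1 CPM in mouse 23. The level in mouse 21 therefore does not bear out its label, and the group is called "labelled restored" throughout. Runx1t1, to which reads of the AE9a fusion can map, was at 101 to 108 CPM in the controls. It was at 155 and 304 CPM in mice 21 and 23, 134 and 130 CPM in mice 28 and 30, and 185 CPM in mouse 12. Of 6 leukaemia and progenitor markers, 4 were above 0 in all 8 libraries, and Cd34 and Ctsg were at 0 in at least 1. Among the 4, Mpo averaged only 0.66 CPM in the controls. Erythroid markers summed to between 4055 and 12401 CPM in every library, with all 9 above 0. Macrophage markers, of which 11 of 12 were above 0 in all 8 libraries and Marco was at 0 in at least 1, summed to 40.1 to 73.8 CPM under PBS knockdown. Their sum was 11.6 to 26.7 CPM in the labelled restored mice, 21.6 to 22.1 CPM with ascorbate and 21.5 CPM in mouse 12. The part of these other cells in the results was not tested.

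Per length of transcript, Ncl (nucleolin) had the highest level of the 42 genes, at a mean of 205 FPKM over the 8 libraries, followed by Npm1 at 158 FPKM and Noc2l at 146 FPKM. At the other end stood Fbl (fibrillarin) at 2.86 FPKM, Rrp1b at 3.23 FPKM and Wdr74 at 4.42 FPKM. FPKM here divides by all annotated exons of a gene (4.21 kb for Fbl), so it understates genes whose main transcript is shorter. Of the 50-base words in the annotated transcripts of Fbl, 19.7% also occur in transcripts of other genes, and reads from such stretches may have been lost or shared. The same share exceeded 10% in 8 of the 42 genes, among them Ddx18 (55.9%), Tsr1 (29.1%, mostly with the overlapping gene Srr), Npm3 (25.6%), Npm1 (24.3%) and Pes1 (23.3%). Levels and differences of these 8 genes are uncertain to that extent.

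**Figure D1:**
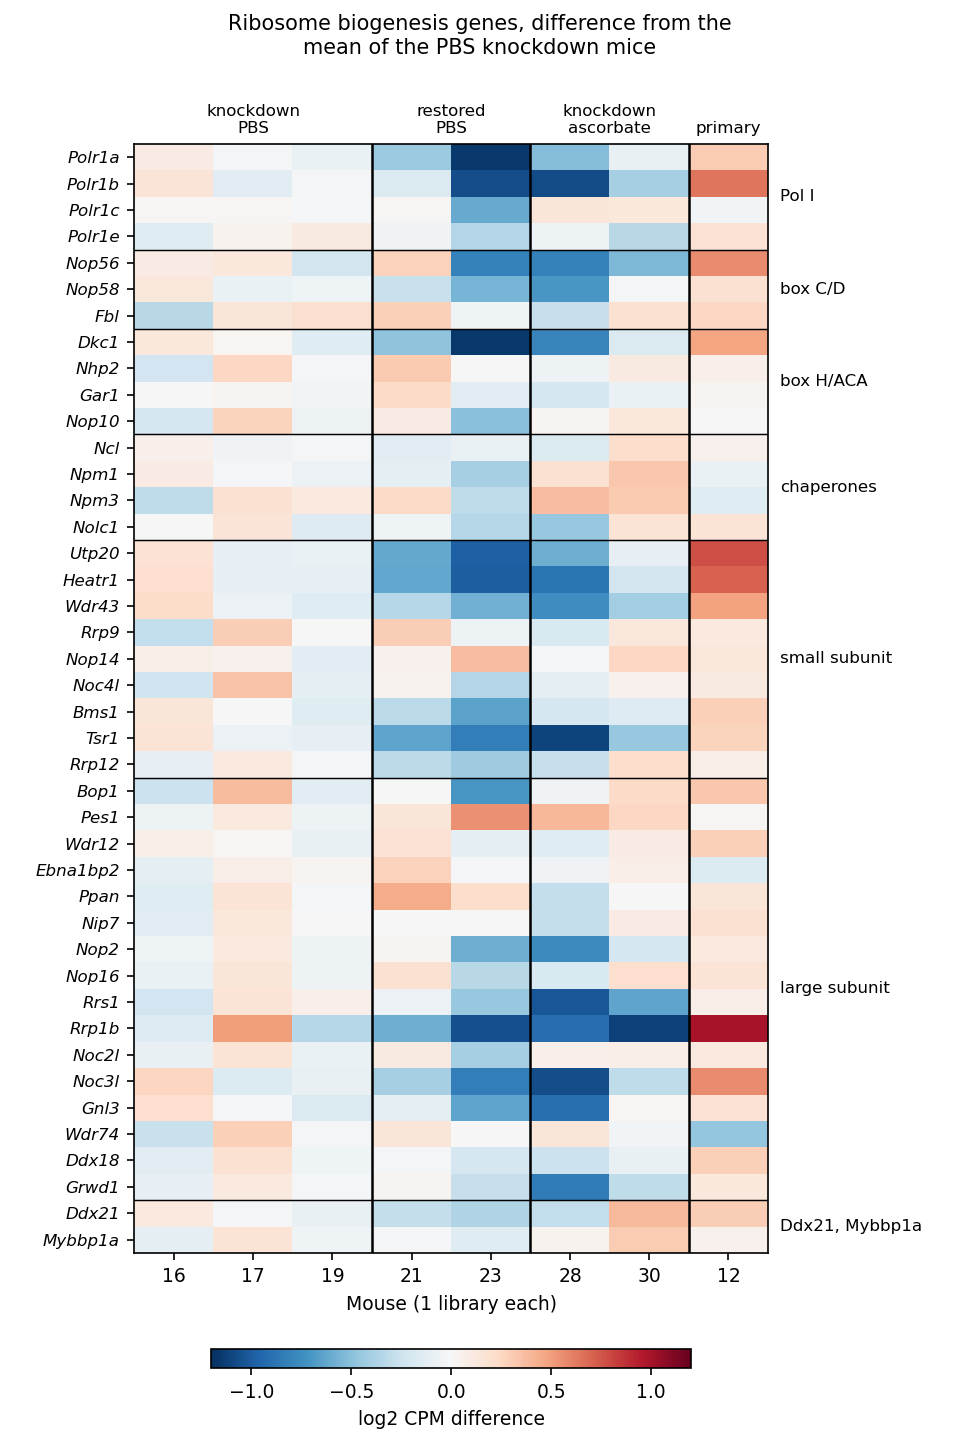
Heat map of the 42 genes (rows, grouped by role) in the 8 libraries (columns, by mouse and group). Colour is the log2 CPM difference from the mean of the 3 PBS knockdown mice, blue for lower and red for higher. The columns of mice 23 and 28 are mostly blue and that of mouse 12 mostly pale red, while mice 21 and 30 are mixed.

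Against the PBS knockdown mice, the labelled restored mice had lower estimates for most of the 42 genes, led by small subunit factors. The median log2 fold change of the 42 was −0.19, against −0.0020 for all 12137 genes tested, and 32 of the 42 lay below 0, against 50.2% of all genes. None passed an adjusted p of 0.05 by edgeR's quasi-likelihood test, which called 0% of all genes. At an unadjusted p under 0.05, 9 of the 42 were lower and 0 higher, where 15.2% of all genes were lower and 14.1% higher. The 2 labelled restored libraries lay wholly below the 3 controls for 15 of the 42 genes and wholly above for 2, against 24.5% and 24.9% of all genes. DESeq2 called 7 of the 42, all lower (Polr1a, Dkc1, Utp20, Heatr1, Bms1, Tsr1 and Rrp1b), and 16.1% of all genes, while limma on FPKM called 0 of the 42 and 0% of all genes.

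Mouse 23 decided much of this. Without it the median was −0.02 and 23 genes lay below 0. Without mouse 21 the median was −0.38, 39 lay below 0, and edgeR called 6 of the 42 lower (Polr1a, Polr1b, Polr1c, Nop56, Dkc1 and Utp20) among 13.3% of all genes. That fit leaves mouse 23 as the 1 library of its group and assumes that it varies like the other groups. Mouse 23 read below mouse 21 in 39 of the 42 genes, against 51.2% of all genes. Both labels cover bulk RNA, in which fewer cells of a type and less RNA per cell cannot be told apart.

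Ascorbate enters here as a treatment on top of the sustained knockdown. Under it the median of the 42 genes was −0.11, against −0.012 for all genes. Of the 42, 27 lay below 0, against 51.0% of all genes. By edgeR 0 of the 42 passed, where 2.86% of all genes were called (347, of which 215 were lower). At an unadjusted p under 0.05, 9 were lower and 0 higher, against 12.9% and 10.7% of all genes. Ranges lay wholly below the controls for 14 genes and wholly above for 4, against 23.5% and 22.4% of all genes. DESeq2 called 4, all lower (Wdr43, Tsr1, Rrs1 and Rrp1b), and 11% of all genes. Limma on FPKM called 0 of the 42, and 2.67% or 2.22% of all genes with a pseudocount of 0.1 or 1. Without mouse 28 the median was 0.02 and 20 of the 42 lay below 0, and without mouse 30 it was −0.29 with 34 below 0. Mouse 28 read below mouse 30 in 36 of the 42, against 50.1% of all genes. Library totals in place of TMM factors moved the median of the 42 to −0.21 and that of all genes to −0.12. The count of genes called by edgeR also rested on single libraries, from 2 without mouse 28 to 796 without mouse 21.

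These 2 comparisons share their 3 control libraries, so a low or high control moves both. The direct comparison of labelled restored with ascorbate had a median of 0.022 over the 42 genes, against 0.014 for all. In it 19 of the 42 lay below 0, against 48.6% of all genes. EdgeR called 0 of the 42 and 0.00824% of all genes. Unadjusted, 1 member was lower and 2 were higher (7.35% and 8.85% of all genes), and DESeq2 called 0 of the 42 and 3.66% of all genes.

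Among the RNA polymerase I subunits, Polr1a, the largest catalytic subunit, read 159 CPM in mouse 16, 146 CPM in mouse 17 and 140 CPM in mouse 19, the controls on PBS. It was at 109 and 66.5 CPM in mice 21 and 23, at 104 and 140 CPM in mice 28 and 30, and at 183 CPM in mouse 12. Both labelled restored mice lay below all controls, and mouse 23 was the lowest of the 8. Its log2 fold change of −0.76 (SE 0.23, edgeR adjusted p 0.0751) for the restored label did not pass, nor did −0.29 (SE 0.22, 0.441) under ascorbate. Polr1b, the other large catalytic subunit, had 83.6 ± 8.22 CPM (SD, n = 3) under PBS knockdown, 73.8 and 39.9 CPM in mice 21 and 23, and 39.7 and 63.1 CPM in mice 28 and 30. All 4 treated libraries lay below the controls, with estimates of −0.56 (SE 0.28) and −0.71 (SE 0.28). Polr1c, which RNA polymerase III also uses, had the highest level of the class (34.7 FPKM). It was at 82.4, 82.1 and 80.1 CPM in the controls, 82.6 CPM in mouse 21, 90.2 and 89.0 CPM under ascorbate and 79.5 CPM in mouse 12. The ascorbate mice were slightly above the controls, and mouse 23 was well below every other library, at 53.7 CPM. Polr1e differed little, between 22.8 and 32.9 CPM.

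In the box C/D group, Nop58, a core scaffold, was at 379, 326 and 332 CPM in the controls and 286 and 234 CPM in mice 21 and 23. Mice 28 and 30 had 213 and 339 CPM, so mouse 28 lay below the controls and mouse 30 among them. Nop56, its partner, was at 126, 128 and 101 CPM in the controls, 142 and 67.0 CPM in mice 21 and 23, and 67.0 and 81.2 CPM under ascorbate. Here the ascorbate mice lay below the controls (log2 fold change −0.68, SE 0.28, edgeR adjusted p 0.184) and the labelled restored mice lay on both sides of them. Nop56 hosts small nucleolar RNAs in its introns and shares 8.12% of its exonic bases with other annotated genes. Fbl, the methyltransferase of these particles, ran from 9.20 to 14.2 CPM with overlapping groups.

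Of the box H/ACA proteins, Dkc1, the pseudouridine synthase, varied most. It was at 219, 204 and 182 CPM in the controls, 144 CPM in mouse 21, 90.05 CPM in mouse 23, 115 and 179 CPM in mice 28 and 30, and 280 CPM in mouse 12. Each treated library lay below the controls and the primary library above them. The estimates were −0.79 (SE 0.25, edgeR adjusted p 0.0831) for the restored label and −0.47 (SE 0.24, 0.275) under ascorbate. The 3 small partners did not share the whole of this pattern. Nhp2, the highest of the class at 98.6 FPKM, was at 93.6, 130 and 108 CPM in the controls, 136 and 109 CPM in mice 21 and 23, 105 and 118 CPM under ascorbate and 115 CPM in mouse 12. Gar1 had 51.9 ± 1.16 CPM (SD, n = 3) in the controls, 60.9 and 47.5 CPM in mice 21 and 23, and 44.98 and 49.3 CPM in mice 28 and 30. For Gar1 both ascorbate mice lay below the controls and mouse 12 above them, at 53.2 CPM. The labelled restored mice lay on both sides of the controls. For Nop10 the groups overlapped in all 3 comparisons with the PBS knockdown mice.

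Among the nucleolar chaperones and scaffold proteins, Ncl was the steadiest. It was at 2226, 2063 and 2101 CPM in the controls, 1934 and 2016 CPM in mice 21 and 23, 1892 and 2462 CPM in mice 28 and 30, and 2209 CPM in mouse 12. Its highest library exceeded its lowest by 1.30-fold, the smallest such ratio of the 42 genes. Npm1 (nucleophosmin, a histone and ribosome chaperone mutated in many human leukaemias) was at 455, 418 and 405 CPM in the controls and 396 and 323 CPM in mice 21 and 23. Under ascorbate it was at 483 and 534 CPM, both above the controls, and in mouse 12 at 402 CPM. Npm1 had the smallest p of the 42 in the direct comparison of the arms (log2 fold change −0.49, SE 0.16, edgeR adjusted p 0.210), which did not pass. Its relative Npm3 was at 27.5, 38.7 and 37.0 CPM in the controls, 39.9 and 27.5 CPM in mice 21 and 23, and 43.9 and 42.2 CPM under ascorbate. That gave Npm3 one of the highest estimates of the 42 under ascorbate (0.32, SE 0.21, adjusted p 0.389). Nolc1, which carries small nucleolar particles, ran from 174 CPM in mouse 28 to 269 CPM in mouse 30.

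Small subunit factors gave the lowest p-values for the restored label. Utp20, a very large processome scaffold protein (chromosome 10, 88746607 to 88826804, GRCm38), was at 102, 84.2 and 85.7 CPM in the controls and 59.0 and 45.7 CPM in mice 21 and 23. It was at 60.1 and 84.5 CPM in mice 28 and 30 and at 154 CPM in mouse 12. The labelled restored mice lay below every control, mouse 30 lay among the controls and mouse 12 far above. The log2 fold change for the restored label was −0.79 (SE 0.21) with an edgeR adjusted p of 0.0624, which ran from 0.00162 to 0.332 over the alternatives. With an offset for transcript length it was −0.47 (0.125).

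Heatr1, which supports RNA polymerase I transcription and early processing (chromosome 13, 12395027 to 12440289), was at 166, 136 and 135 CPM in the controls. It was at 94.1 and 73.1 CPM in mice 21 and 23, 79.1 and 124 CPM in mice 28 and 30, and 236 CPM in mouse 12. All 4 treated libraries were below all controls. Its estimates were −0.80 (SE 0.22, edgeR adjusted p 0.0671) and −0.53 (SE 0.22, 0.187). For the restored label the adjusted p ran from 0.000905 to 0.355 over the alternatives.

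Tsr1, a GTPase-like factor of late small subunit maturation (chromosome 11, 74898071 to 74909342), was at 95.7, 81.7 and 79.9 CPM in the controls. It had 55.3 and 48.2 CPM in mice 21 and 23, 39.5 and 62.5 CPM in mice 28 and 30, and 103 CPM in mouse 12. Again the treated libraries all lay below the controls, with −0.73 (SE 0.22, edgeR adjusted p 0.0748) for the restored label and −0.76 (SE 0.22, 0.0874) under ascorbate. Those adjusted p-values ran from 0.00480 to 0.354 and from 0.00494 to 0.409 over the alternatives. Tsr1 shares 32.3% of its exonic bases with Srr on the other strand, and its reads cannot be told from those of Srr without a stated strand setting.

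The same order held for Wdr43, with 163 ± 22.2 CPM (SD, n = 3) in the controls, 128 and 109 CPM in mice 21 and 23, and 96.6 and 121 CPM under ascorbate. Bms1, a GTPase of the processome, also had both arms below the controls, with 206, 185 and 169 CPM against 149 and 119 CPM and then 162 and 168 CPM. The remaining 4 did not. Noc4l, the highest of the class at 42.5 FPKM, was at 95.6, 143 and 105 CPM in the controls, 116 and 88.6 CPM in mice 21 and 23, 104 and 117 CPM in mice 28 and 30, and 121 CPM in mouse 12. Nop14, which binds Noc4l, was at 97.9, 97.1 and 85.9 CPM in the controls, 97.1 and 121 CPM in mice 21 and 23, and 92.4 and 111 CPM in mice 28 and 30. Rrp9 overlapped in every comparison with the controls. Rrp12 lay below the controls (76.9 to 88.8 CPM) in both labelled restored mice, at 66.0 and 61.3 CPM, while the ascorbate mice lay on both sides of them, at 67.7 and 94.9 CPM.

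**Figure D2:**
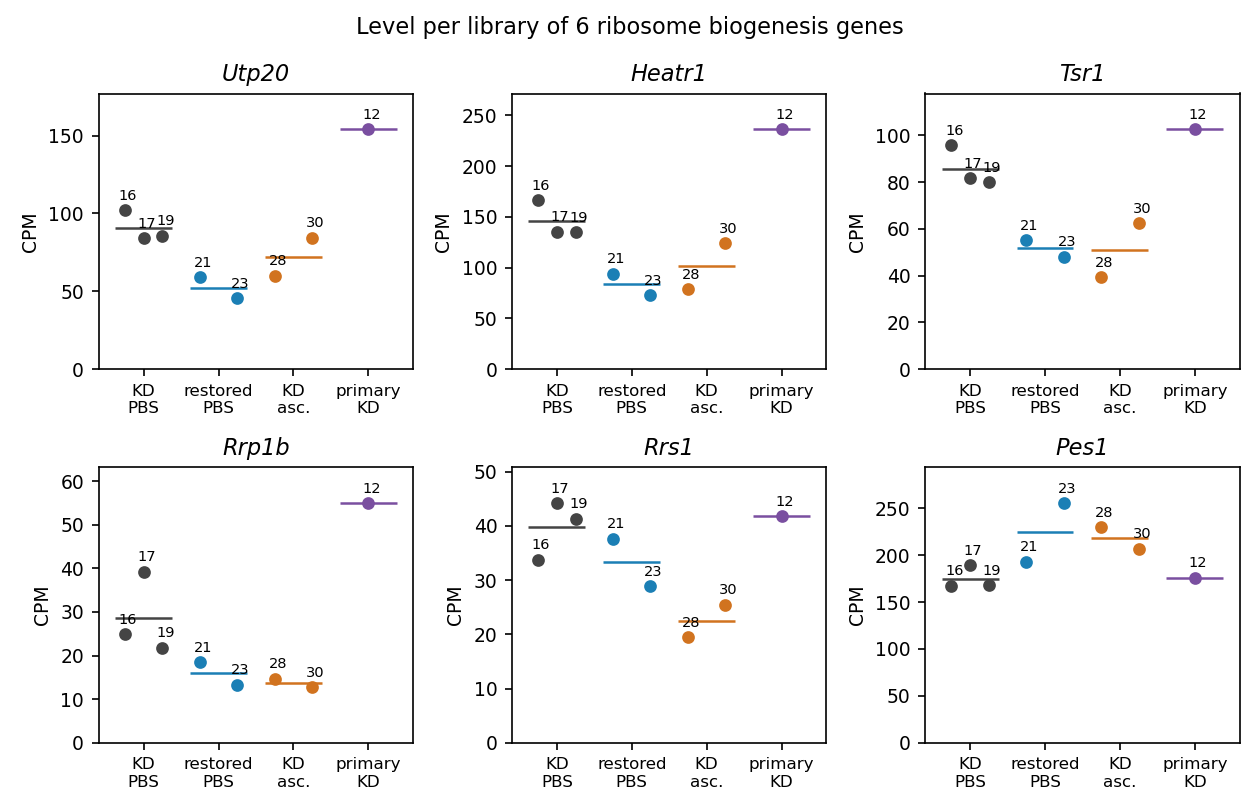
CPM (vertical axes, starting at 0) of Utp20, Heatr1, Tsr1, Rrp1b, Rrs1 and Pes1 in each library. Each point is 1 mouse with its number, lines are group means, KD is knockdown and asc. is ascorbate. In the first 4 genes mice 21 and 23 lie below all PBS knockdown mice, in Rrs1 mice 28 and 30 do, and in Pes1 all 4 treated mice lie above them.

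The 16 large subunit factors held both extremes. Rrp1b, a nucleolar protein of large subunit processing (chromosome 17, 32036100 to 32062865), had the lowest estimate of the 42 genes in both arms. Its level was low and uneven, at 24.9, 39.2 and 21.8 CPM in the controls, 18.5 and 13.3 CPM in mice 21 and 23, 14.7 and 12.8 CPM in mice 28 and 30, and 55.0 CPM in mouse 12. It varied 4.31-fold between its highest and lowest library, the widest ratio of the 42. Log2 fold changes were −0.85 (SE 0.28, edgeR adjusted p 0.0909) for the restored label and −1.07 (SE 0.28, 0.0729) under ascorbate. Those adjusted p-values ran from 0.00868 to 0.405 and from 0.000770 to 0.248 over the alternatives.

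Rrs1, which helps bring the 5S ribonucleoprotein into the large subunit (chromosome 1, 9545408 to 9547455), was at 33.7, 44.2 and 41.3 CPM in the controls. It was at 37.6 and 28.9 CPM in mice 21 and 23, at 19.4 and 25.5 CPM in mice 28 and 30, and at 41.8 CPM in mouse 12. The ascorbate mice were the lowest 2 of the 8 libraries. Under ascorbate Rrs1 had an estimate of −0.83 on the log2 scale (SE 0.21) with an edgeR adjusted p of 0.0659, the smallest of the 42 in that comparison. It passed with a length offset (−0.90, 0.0401), without mouse 21 (0.0475), without mouse 23 (0.0455), in a fit of only the groups compared (0.0454), by DESeq2 and without a filter on low counts (0.00484), and its adjusted p reached 0.344 without mouse 28. For the restored label it was −0.26 (SE 0.21, 0.422). The direct difference between the arms was 0.57 (SE 0.23, 0.265).

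Pes1, a subunit of the PeBoW complex that matures large subunit RNA (chromosome 11, 3963975 to 3980004), had the highest estimate of the 42 for the restored label and, after Npm3, the next highest under ascorbate. It was at 167, 189 and 168 CPM in the controls, 193 and 256 CPM in mice 21 and 23, 230 and 207 CPM in mice 28 and 30, and 176 CPM in mouse 12. All 4 treated libraries exceeded the controls. The estimates of 0.36 (SE 0.16, edgeR adjusted p 0.174) and 0.31 (SE 0.16, 0.275) did not pass, and their adjusted p-values ran from 0.0587 to 0.712 and from 0.160 to 0.677. Of the other 2 PeBoW subunits, Bop1 was at 84.3, 131 and 92.4 CPM in the controls and 101 and 61.9 CPM in mice 21 and 23, and Wdr12 was between 74.3 and 100.2 CPM in all 8 libraries.

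Ppan, the mouse relative of Peter Pan, was the other member wholly above the controls for the restored label. It was at 70.0, 87.2 and 76.6 CPM in the controls, 106 and 89.6 CPM in mice 21 and 23, 63.5 and 77.6 CPM in mice 28 and 30, and 85.8 CPM in mouse 12. Its estimates of 0.33 (SE 0.17, edgeR adjusted p 0.227) and −0.15 (SE 0.17, 0.617) had opposite signs, and the direct difference between the arms was 0.48 (SE 0.19, 0.261). Grwd1, a histone-binding assembly factor, was at 52.3, 60.5 and 55.2 CPM in the controls, 57.1 and 46.2 CPM in mice 21 and 23, and 31.2 and 45.2 CPM in mice 28 and 30. Both ascorbate libraries were below every other library (log2 fold change −0.56, SE 0.20, edgeR adjusted p 0.139). Noc3l had both arms below the controls, at 47.2, 35.1 and 37.1 CPM against 30.0 and 22.2 CPM and then 18.9 and 32.0 CPM. Its partner Noc2l, the highest of the class, was at 398, 475 and 399 CPM in the controls, 456 and 320 CPM in mice 21 and 23, 442 and 447 CPM in mice 28 and 30, and 457 CPM in mouse 12. Noc2l shares 20.9% of its exonic bases with Samd11 on the other strand. The RNA methyltransferase Nop2 lay below the controls (122 to 138 CPM) in both ascorbate mice, at 75.2 and 111 CPM, while mouse 21 was among them at 130 CPM and mouse 23 below at 84.6 CPM. Ebna1bp2, Nip7, Nop16, Gnl3, Wdr74 and Ddx18 overlapped with the controls in both arms.

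Ddx21, a helicase that senses RNA polymerase I output, was at 405, 367 and 351 CPM in the controls, 307 and 292 CPM in mice 21 and 23, and 304 and 490 CPM in mice 28 and 30. The ascorbate pair thus held both a library below the controls and the highest of the 8. Mybbp1a, a nucleolar MYB-binding protein, was at 482, 582 and 504 CPM in the controls, 517 and 471 CPM in mice 21 and 23, 537 and 644 CPM in mice 28 and 30, and 541 CPM in mouse 12, with overlapping groups against the controls.

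By class, the median log2 fold change for the restored label was −0.41 in RNA polymerase I subunits (4 of 4 below 0), −0.46 in small subunit factors (7 of 9) and −0.12 in large subunit factors (11 of 16). It was −0.15 in the chaperones (4 of 4), −0.18 in the box C/D group (2 of 3) and −0.062 in the box H/ACA group (2 of 4). Under ascorbate the median was −0.25 in RNA polymerase I subunits (3 of 4 below 0), −0.19 in small subunit factors (8 of 9) and −0.12 in large subunit factors (10 of 16). The box C/D group had −0.33 (3 of 3), the box H/ACA group −0.074 (2 of 4) and the chaperones 0.13 (1 of 4). With few genes in a class, these are descriptions.

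Extremes of the 42 genes gathered in a few libraries. Mouse 23 held the lowest CPM for 18 of the 42 genes and mouse 28 for 16, while mouse 12 held the highest for 17 and mouse 17 for 8. Such extremes were not counted over all genes, so whether the gathering is particular to the 42 was not tested. Relative to the mean of the controls, the median log2 difference of the 42 was −0.058, 0.11 and −0.061 in mice 16, 17 and 19. It was −0.0031 in mouse 21 and −0.38 in mouse 23, −0.27 in mouse 28 and 0.041 in mouse 30, and 0.16 in mouse 12. Within each treated pair the library with the lower median also had the higher mitochondrial share (14.5% against 9.49%, and 17.1% against 9.73%). Between the pairs, mouse 28 had a higher share than mouse 23 but a less low median. The controls did not keep this order either, with shares of 9.09%, 10.1% and 11.4% in mice 16, 17 and 19. The primary library had the highest median and the lowest mitochondrial share (5.16%). The part of RNA quality or of mitochondrial RNA in these values was not tested.

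**Figure D3:**
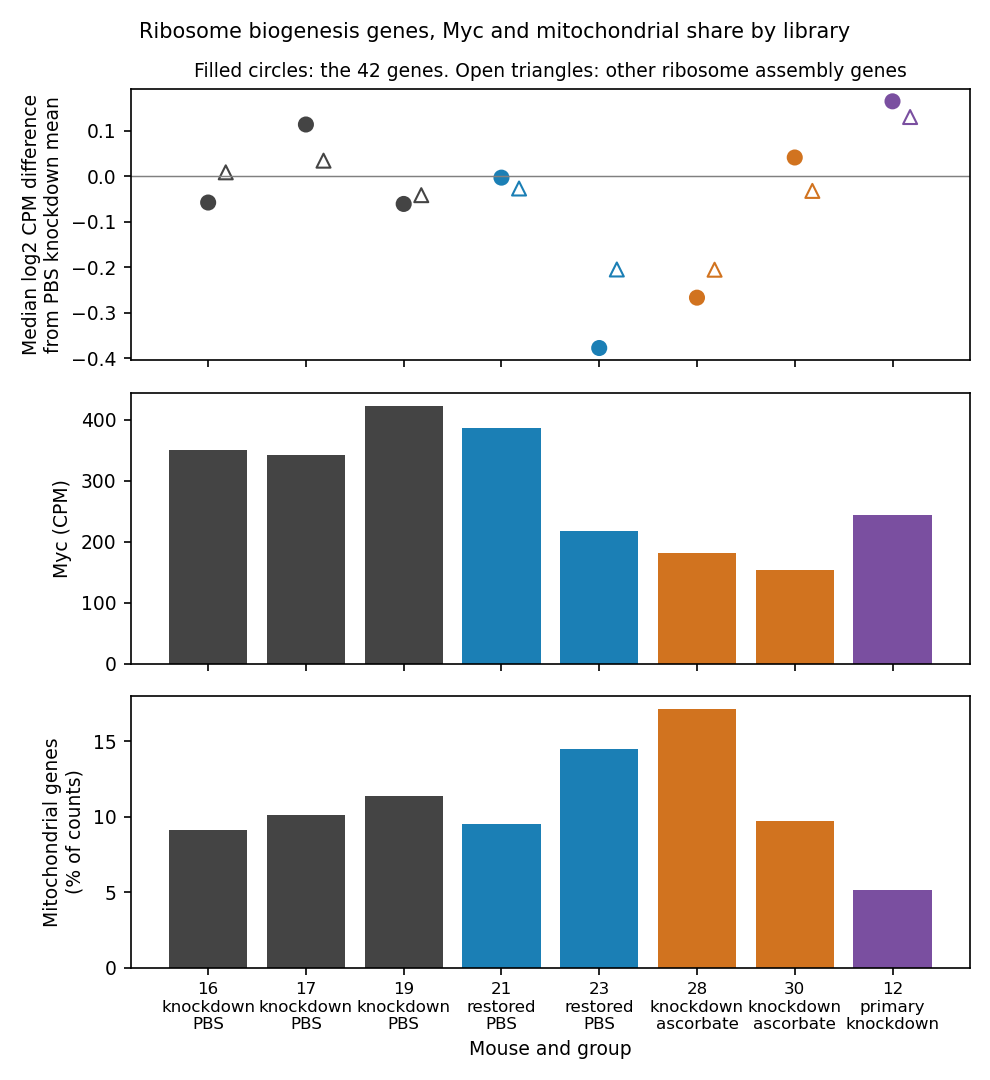
Top, median log2 CPM difference from the PBS knockdown mean in each library for the 42 genes (circles) and 104 other ribosome assembly genes (triangles). Middle and bottom, Myc in CPM and the share of counts from mitochondrial genes in percent. Both medians are lowest in mice 23 and 28, which also have the 2 highest mitochondrial shares, while Myc is lowest in mice 28 and 30.

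The other genes of the pathway, from lists of 11 further RNA polymerase I factors, 42 small subunit and 42 large subunit factors and 9 proteins that assemble small nucleolar particles, also lay mostly below 0. For the restored label 67 of these 104 lay below 0, against 50.2% of all genes, with a median of −0.11. EdgeR called 0 of them, and their smallest adjusted p was 0.0502. Unadjusted, 11 of the 104 were lower and 6 higher, smaller shares than the 15.2% and 14.1% of all genes. Under ascorbate 65 lay below 0, against 51.0% of all genes, and the median was −0.16. Unadjusted, 24 of the 104 were lower and 2 higher, against 12.9% and 10.7% of all genes. By edgeR's adjusted p 2 of the 104 passed, both lower, the large subunit factors Nol8 and Urb2. Of all 12137 genes 347 were called (2.86%), of which 215 were lower. Nol8 was at 70.2, 54.4 and 58.0 CPM in the controls and 26.5 and 36.4 CPM under ascorbate (log2 fold change −0.96, SE 0.21, edgeR adjusted p 0.0448). Urb2 was at 83.1, 66.1 and 74.9 CPM in the controls and 28.1 and 45.6 CPM under ascorbate (−1.03, SE 0.23, 0.0453). Mice 21 and 23 were also below the controls, at 41.7 and 33.9 CPM for Nol8 and 56.5 and 53.3 CPM for Urb2. Neither call held without mouse 16, 17, 19, 28 or 30, and that for Nol8 also missed the threshold by limma. Their adjusted p under ascorbate reached 0.2503 and 0.227, both without mouse 28. Of 14 RNA polymerase III genes, 0 passed in either arm (medians −0.021 and −0.11), with 1 lower and 1 higher unadjusted for the restored label (15.2% and 14.1% of all genes) and 4 lower and 1 higher under ascorbate (12.9% and 10.7% of all genes).

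Differences were ordered in part by transcript length. Over the 42 genes, Spearman's rho between exonic length and log2 fold change was −0.42 for the restored label, −0.30 under ascorbate and 0.60 for the primary mouse, against −0.39, −0.24 and 0.33 over all genes with a length. Genes share libraries, so these are descriptions. The 21 longer genes (above the median length) had a median of −0.37 for the restored label and the 21 shorter ones −0.12. Under ascorbate the medians were −0.21 and 0.0012, and in the primary mouse 0.28 and 0.098. The same trend against the control mean differed among the controls themselves, with a rho over the 42 of 0.46 in mouse 16, −0.49 in mouse 17 and −0.22 in mouse 19. After adjustment of each library for length, mouse 21 had a median of −0.094 relative to the controls and mouse 23 one of −0.43. Mouse 28 was at −0.26, mouse 30 at 0.046 and mouse 12 at 0.22. With a length offset in the edgeR fit, the median of the 42 was −0.27 for the restored label and −0.10 under ascorbate.

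**Figure D4:**
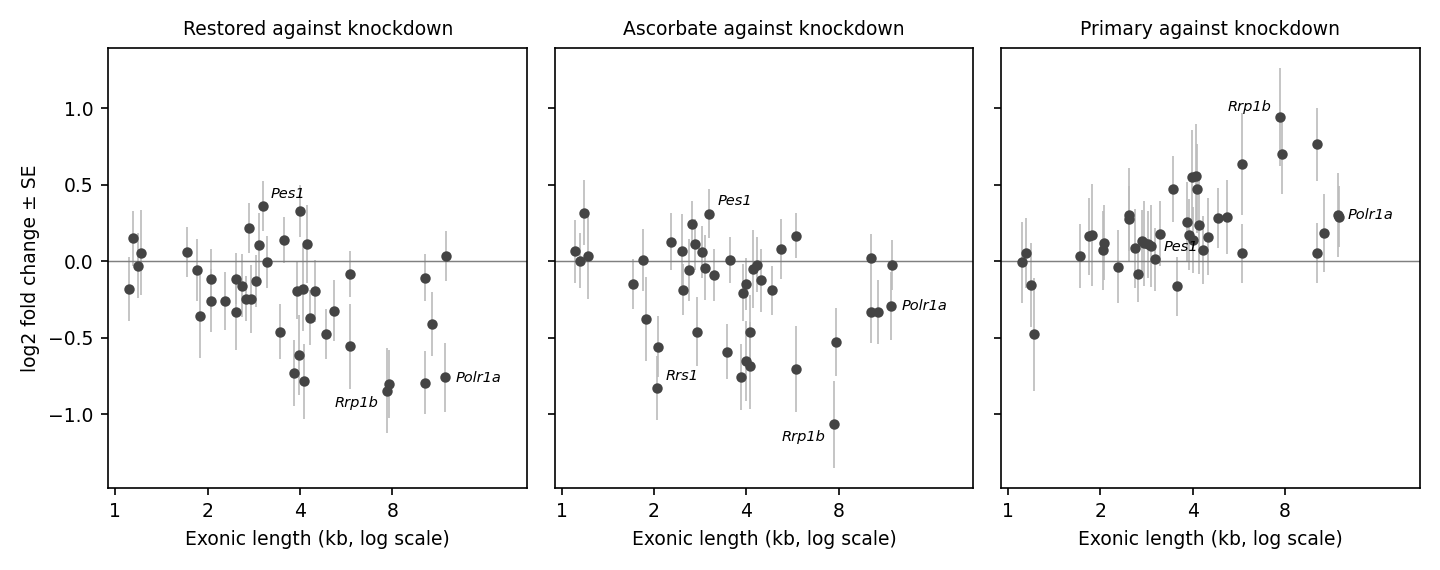
log2 fold change ± SE (edgeR) of the 42 genes against exonic length in kb on a log axis, in 3 comparisons with the PBS knockdown mice. Among the longer genes, Polr1a and Rrp1b lie low in the left panel and above 0 in the right. Wdr12 and Ncl, also among the longer genes, are at 0.033 and −0.11 in the left panel. The rho is −0.42 in the left panel and 0.60 in the right.

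Myc, on chromosome 15 (61985391 to 61990374), was at 351, 341 and 423 CPM in the controls, 386 and 217 CPM in mice 21 and 23, 182 and 154 CPM in mice 28 and 30, and 244 CPM in mouse 12. Both ascorbate mice had less Myc than every other library, mouse 21 lay within the controls, and mouse 23 lay below them. Myc fell under ascorbate (log2 fold change −1.16, SE 0.24, edgeR adjusted p 0.0414), a call lost without mouse 16, 17, 19, 28 or 30, with an adjusted p of at most 0.163. For the restored label it was −0.30 (SE 0.23, 0.397), which turned to 0.045 without mouse 23 and was −0.77 (0.0461) without mouse 21, where mouse 23 stands alone and the other groups supply the spread. Within the MYC and MAX network, Mxi1, a MAX partner that opposes MYC, rose under ascorbate, from 146 ± 8.20 (SD, n = 3) to 238 ± 17.9 CPM (n = 2; log2 fold change 0.70, SE 0.15, edgeR adjusted p 0.0459, up to 0.227 over the alternatives). That call was lost by limma, on library totals and without mouse 16, 17, 19, 28 or 30.

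The 42 genes did not order the libraries as Myc did. Mouse 30 had the lowest Myc of all and a median of 0.041 for the 42, while mouse 12 had less Myc than each control and the highest median. Over the 8 libraries, the Pearson correlation of log2 CPM with Myc had a median of 0.17 for the 42 genes, against 0.014 for all 13023 genes tested, and 33 of the 42 were above 0, against 51.0% of all genes. By exact permutation with adjustment over all genes, 0 of the 42 and 0% of all genes passed, and the smallest adjusted p of the 42 was 0.409. Unadjusted, 2 of the 42 had a positive r with p under 0.05, against 6.07% of all genes. By Spearman's rho 0 of the 42 were positive at that threshold, against 483 of the 13023 genes. The median r was 0.25 over the 7 secondary libraries, where 2 of the 42 were positive with an unadjusted p under 0.05 against 7.79% of all genes, and 0.26 without mice 28 and 30, which lie farthest from the median Myc level. Centred within groups it was 0.28, with 35 of 42 above 0 against 51.8% of all genes. On library totals it was 0.39.

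Rrs1 had the highest r with Myc of the 42, at 0.77 (two-sided exact permutation p 0.0235, adjusted 0.409; rho 0.62, p 0.115, adjusted 0.645). Without mice 28 and 30 its r was 0.48, so the relation rested in part on the ascorbate mice. Grwd1 followed at 0.67 (exact permutation p 0.0494, adjusted 0.473; rho 0.57, p 0.151) and Gar1 at 0.66 (p 0.0696, adjusted 0.501; rho 0.60, p 0.132). Without the same 2 mice they were at 0.36 and 0.49. The lowest values were those of Pes1 at −0.67 (exact permutation p 0.0765, adjusted 0.511; rho −0.69, p 0.0694), Nop14 at −0.58 (p 0.134, adjusted 0.585; rho −0.57, p 0.151) and Mybbp1a at −0.47 (p 0.249, adjusted 0.692; rho −0.43, p 0.299). Without mice 28 and 30, Pes1 and Nop14 were at −0.66 and −0.90, and Mybbp1a turned to 0.17.

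**Figure D5:**
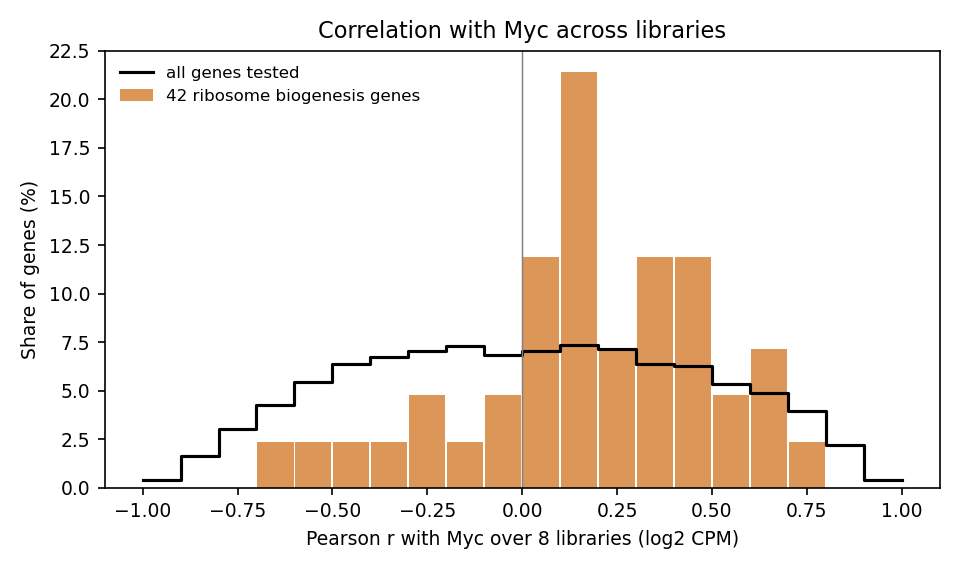
Histogram of Pearson's r with Myc over the 8 libraries (log2 CPM, bins of 0.1), as a share of genes in percent. Bars are the 42 genes and the black line all genes tested. The bars lie mostly above 0 with a median of 0.17, and the tails of the black line reach further on both sides.

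By class the median r with Myc was 0.37 in RNA polymerase I subunits (4 of 4 above 0), 0.35 in box C/D proteins (3 of 3), 0.29 in large subunit factors (14 of 16), 0.22 in box H/ACA proteins (4 of 4), 0.16 in small subunit factors (7 of 9) and −0.24 in the chaperones (1 of 4). The 104 other assembly genes had a median of 0.25, with 68 above 0. A list of 19 tested MYC targets outside the nucleolus had a median of 0.20, with 14 above 0. The 7 genes whose E-box is printed above had a median r of 0.44 and the 30 without the motif one of 0.17. The 7 ran from −0.67 (Pes1) to 0.67 (Grwd1), so both ends of the relation held genes with this motif.

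The primary mouse, the 1 library of its group, was above all 3 PBS knockdown mice in 23 of the 42 genes and below them in 4, against 31.8% and 29.7% of all genes. The median log2 difference was 0.16, against −0.011 for all 13024 genes tested. Of the 42, 6 lay below 0, against 51.2% of all genes. EdgeR, which assumes that the lone library varies like the other groups, called 0 of the 42 and 0.115% of all genes. Unadjusted, 3 were higher and 0 lower, against 4.39% and 4.69% of all genes, and DESeq2 called 0 of the 42 and 1.69% of all genes. Those 3 were the long genes Rrp1b (0.94, SE 0.32, adjusted p 0.381), Utp20 (0.76, SE 0.24, 0.331) and Heatr1 (0.70, SE 0.26, 0.438). With a length offset Utp20 and Heatr1 were at 0.56 and 0.54. B cell markers summed to 81.2 CPM in this library, against 26.1 to 27.8 CPM in the controls, and neutrophil markers to 42.4 CPM, against at most 8.34 CPM in the controls. Leukaemia and progenitor markers summed to 681 CPM, against 358 to 495 CPM in the controls, and each of the 6 was above all 3 controls. The part of these markers' cells in these values was not tested. Without replicates, transplant generation and the single library cannot be told apart.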

How the data were processed

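RNA from 8 mice was measured by RNA-seq, with oligo-dT enrichment and the NEXTflex kit, per the labels' protocols. Gene-level raw counts by symbol were deposited by the authors (whole numbers, per the file headers), with an FPKM table beside them, also deposited. STAR, featureCounts, DESeq2 and mm10 (GRCm38) are named in the submitters' processing notes. Versions, strand and the treatment of reads with several matches are not given in the sources used here.

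Computed here were CPM on TMM-scaled totals and edgeR 4.0.16 in R 4.3.3 (quasi-likelihood, robust, filterByExpr at 10 counts, Benjamini-Hochberg adjustment over all genes, threshold 0.05). The 7 secondary libraries were fitted together, and all 8 for the primary mouse. All 42 genes passed the filter. A called gene has an adjusted p under 0.05. Pearson and Spearman correlations with Myc used log2 CPM (prior count 2) and exact permutation of all pairings, two-sided, over 13023 relations. Exonic length was recovered from count and FPKM. GENCODE vM21 gave positions and overlaps. Promoters are from RefSeq, and 38 of 41 window ends were found in GENCODE transcripts. Alternatives were DESeq2 1.42.0 (Wald test, or its size factors), limma 3.58.1 on FPKM in log2 form (pseudocount 0.1 or 1, genes reaching 1 FPKM in 2 libraries), other filters, library totals, a length offset (loess, span 0.3), other sets of libraries and each library left out.

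The scripts were tested on simulated data. The members and gene lists were chosen with earlier results of these data known. The genes given by library are those with the 3 smallest p in a comparison, the 2 highest and lowest changes, the highest FPKM of each class, the 3 highest and lowest r with Myc, Npm1, Ncl, Fbl, Polr1a, Myc, and list genes past the threshold. Values of other members were added after they had been seen. Each mouse is 1 replicate, and both the depth and the groups of 2 or 3 limit precision.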

Additional observations from a re-analysis of the deposited data

How the results depend on the processing

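No paired analysis was possible because the groups share no replicate numbers. By edgeR 0 of the 42 genes passed in each of the 4 comparisons, and in the direct comparison of the arms that count was 0 under every setting run. Where a library left out leaves 1 in its group, that library is assumed to vary like the others. For the restored label, 0 genes were called over the whole table, against 276 with DESeq2 size factors (2.27% of the genes tested). Without a low-count filter 2207 were called (9.71%), among them 8 of the 42. A stricter CPM filter gave 321 (2.99%), and DESeq2's Wald test gave 1951 (16.1%), among them 7 of the 42. Leaving out each library gave 0 to 1692 genes, 0 to 6 of the 42, and medians of the 42 from −0.38 to −0.025. Under ascorbate the count was 347 (2.86% of the genes tested). Without a filter it was 1498 (6.59%, 7 of the 42) and with DESeq2 1339 (11%, 4 of the 42). A fit of only the groups compared gave 855 (7.22%, 2 of the 42) and a length offset 487 (4.01%, 1 of the 42). Limma on log2(FPKM + 1) gave 222 (2.22%). The median of the 42 was −0.21 on library totals. Each library left out gave 2 to 796 genes, 0 to 1 of the 42, and medians from −0.29 to 0.024. On library totals 21.7% of the calls were higher, with TMM 38.04% and with a length offset 47.4%. For the direct comparison of the arms the count was 1, against 582 without a filter, 444 with DESeq2, 3 with a length offset, 3 with limma on log2(FPKM + 1), 3 with all 8 libraries and 0 with only the groups compared. The median was 0.14 on library totals. Each library left out gave 0 to 5 genes, medians from −0.20 to 0.15 and 15 to 34 of the 42 below 0. For the primary mouse the count was 15, against 467 without a filter (2 of the 42), 5 with a stricter filter and 220 with DESeq2, and 6 to 45 with each library left out. The median r with Myc was 0.39 on library totals and 0.10 to 0.34 with each library left out. Of the single genes, Myc for the restored label ran from −0.77 without mouse 21 to 0.045 without mouse 23, and the r of Mybbp1a to 0.17 without mice 28 and 30. The cause of these shifts was not tested. The 2 to 3 libraries per group limit what these tests can show.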
